A study of Mus musculus with 6 samples.

Results

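The 32 genes described here encode the proteins that carry glucose into a cell, break it down to pyruvate, turn pyruvate into lactate and export it, hold back the oxidation of pyruvate and divert glucose carbon into the pentose phosphate pathway, together with the transcription factor subunit Hif1a. They were picked out by gene symbol, and each of the 32 symbols matched 1 of the 46603 gene identifiers in the count files. The RNA came from cultures of enteric glial cells (EGCs), which support the neurons of the gut, grown out of neurospheres made from the whole intestine of C57BL/6J mouse embryos (E14.5), and its poly(A) fraction was sequenced. The 3 control cultures had NIL as their treatment label and the 3 LPS cultures received lipopolysaccharide, a component of the bacterial outer membrane, at 100 ng/ml for 12 h. The label of each culture gave a replicate number from 1 to 3. The labels did not say whether the numbered cultures came from separate litters or preparations, so the p-values measure the spread between these cultures, which may be technical.

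Glycolysis converts glucose to pyruvate in the cytosol and yields ATP without oxygen. Lactate dehydrogenase regenerates the NAD+ that the pathway consumes, and monocarboxylate transporters carry the lactate out of the cell. The pentose phosphate pathway branches off after the first step and supplies NADPH and ribose. Many genes of these routes are known targets of hypoxia-inducible factor 1 (HIF-1), whose alpha subunit is encoded by Hif1a, and glia such as astrocytes are known for making lactate from glucose.

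Library totals ranged from 18775316 to 23664312 counts, and all 32 genes passed the filter on low counts, with 126 to 56995 counts per gene and library. Levels are given as CPM, counts divided by the composition-corrected library size in units of 1e+06. Levels of different genes are compared only as CPM per kilobase of annotated exon. The 10 glial markers were all above the floor of 3 counts in every library and summed to between 380.2 and 521 CPM in a control library and between 424 and 436 CPM in an LPS library. The cultures also held RNA of other cells. Markers of macrophages summed to 4345, 5682 and 13582 CPM in control replicates 1, 2 and 3 and to 4248, 5519.8 and 21315 CPM in LPS replicates 1, 2 and 3, so both libraries numbered 3 stood apart from the rest. Summed mesenchymal markers lay between 15110.0 and 16282 CPM in all libraries, and 6 of the 7 smooth muscle markers tested fell with LPS, against 6.71% of all genes. The 8 proliferation markers summed to 391, 457 and 769 CPM in control and 334, 293 and 279 CPM in LPS replicates 1, 2 and 3, and the part of these cells in the results below was not tested.

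The glycolytic genes as a group were higher after LPS. The 32 genes together took 0.733%, 0.735% and 0.751% of all counts in the control cultures and 1.57%, 1.65% and 1.13% in the LPS cultures, and the lowest LPS share belonged to replicate 3. By the edgeR quasi-likelihood test with Benjamini-Hochberg adjustment over 15226 genes, 20 of the 32 genes (62.5%) rose, against 9.09% of all genes tested, where 15.8% were called in either direction. Pfkfb2 was the 1 gene of the 32 that fell, against 6.71% of all genes, and 11 did not pass the test. At least 2-fold higher and past the test were 14 of the 32, against 5.02% of all genes. The LPS and control libraries did not overlap for 21 of the 32 genes with LPS higher (19.3% of all genes) and for 2 with LPS lower (19.4% of all genes). The median log2 fold change of the 32 was 0.90, with a range from -0.998 to 2.74, beside a median of -0.02 over all genes tested. In bulk RNA, fewer cells of a type and less RNA per cell cannot be told apart, and this holds for each gene below.

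**Figure D1:**
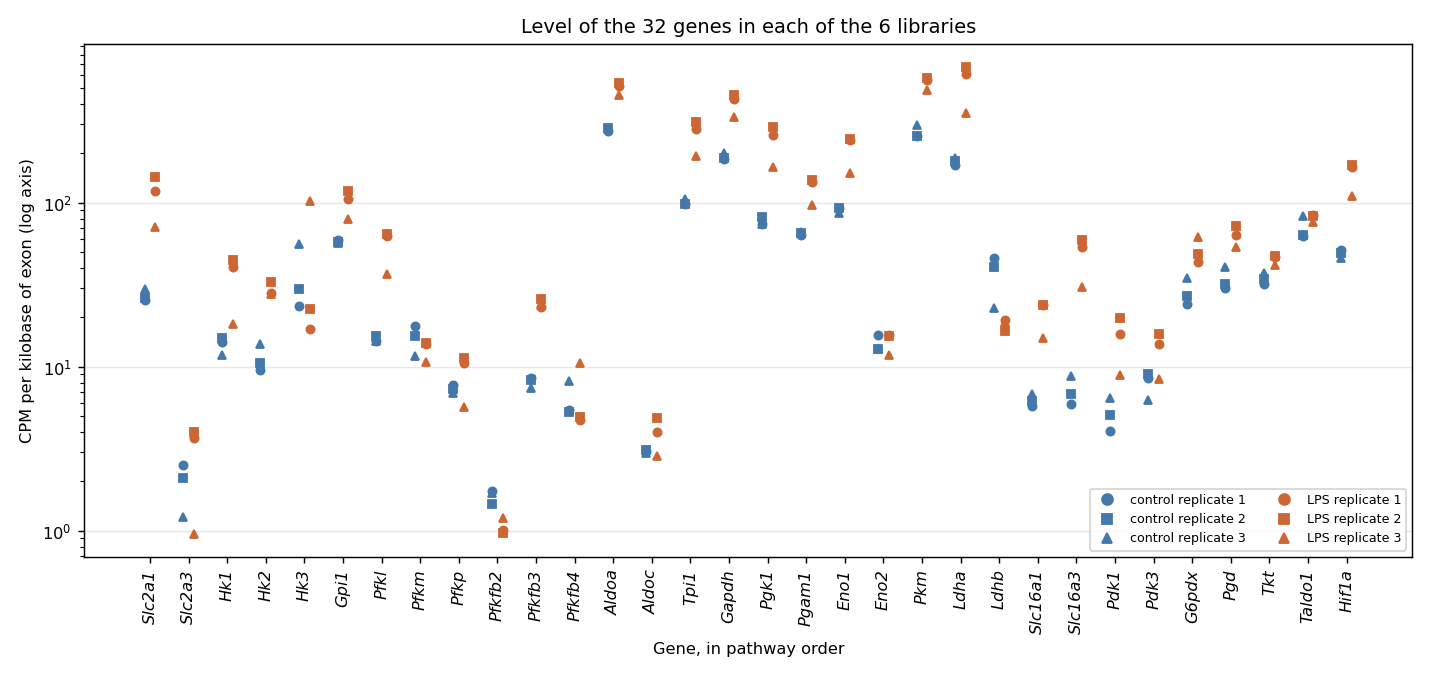
CPM per kilobase of exon (log axis) of the 32 genes in pathway order, 1 point per library, with control libraries in blue, LPS libraries in orange, and a circle, square or triangle for replicate 1, 2 or 3. The 20 genes that rose have all 3 LPS points above all 3 control points, and the triangle of LPS replicate 3 is the lowest LPS point in 18 of those 20.

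The count of calls depended on single libraries. Among the 20 genes that rose, LPS replicate 3 was the lowest LPS library for 18, with Pfkfb3 and G6pdx as the exceptions. The log2 ratio between same-numbered cultures was lowest in pair 3 for 19 of the 20, with Pfkfb3 as the exception. Without LPS replicate 3 the test called 24 of the 32 higher, against 12.6% of all genes in that fit. With both libraries numbered 3 left out, an alternative added after the data were seen, it called 26 higher and 2 lower, against 22.6% and 20.4% of all genes. Without control replicate 2 it called 6 higher, namely Hk2, Pfkl, Pfkfb3, Slc16a1, Slc16a3 and Hif1a, against 2.44% of all genes. The count was 9 without control replicate 1 (3.03% of all genes), 20 without control replicate 3 (7.52%), 12 without LPS replicate 1 (3.98%) and 12 without LPS replicate 2 (3.36%). The 6 genes called without control replicate 2 were also those that kept their call in each of the 6 fits that left out 1 library. With the replicate number as a block, 22 rose and 2 fell, against 15.4% and 14.9% of all genes, since Hk1 and Pdk3 joined those that rose, Ldhb joined Pfkfb2, and no call was lost.

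**Figure D2:**
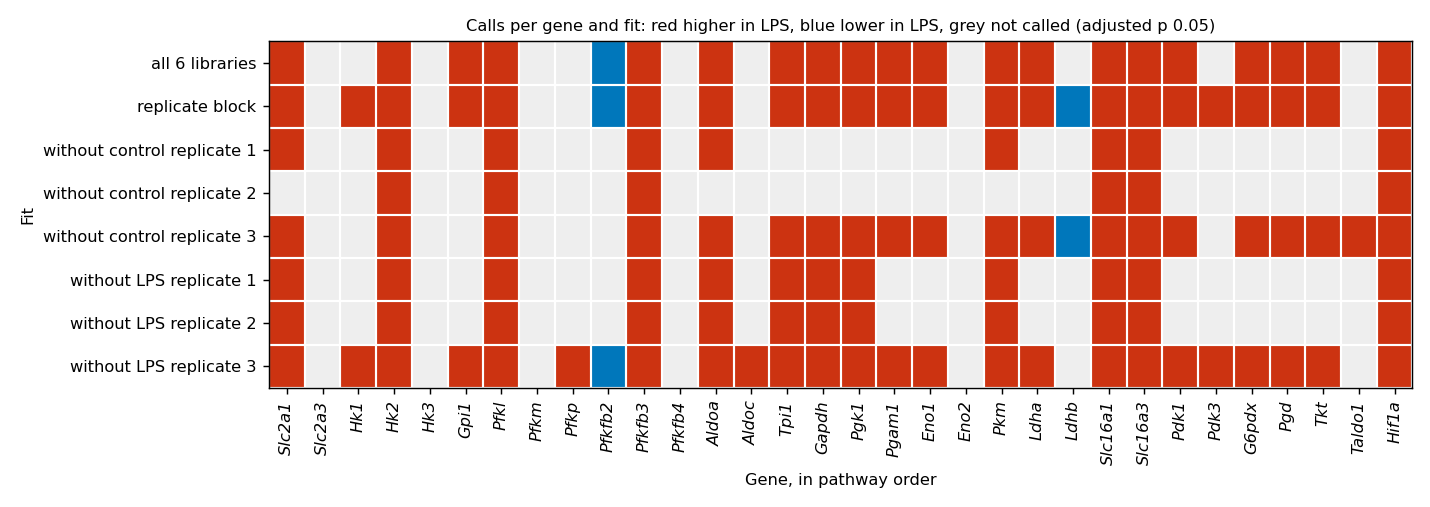
Call of each of the 32 genes (columns, pathway order) in 8 edgeR fits (rows), which are the fit of all 6 libraries, the fit with the replicate block and the 6 fits with 1 library left out. Red squares are genes called higher in LPS, blue squares lower and grey squares not called, and 6 columns (Hk2, Pfkl, Pfkfb3, Slc16a1, Slc16a3 and Hif1a) are red in every row.

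Hif1a encodes the oxygen-regulated subunit of HIF-1 and lies at chr12:73901375-73947530, plus strand (GRCm38). Its level was 303, 293 and 271 CPM in the control cultures and 975, 995 and 651 CPM in the LPS cultures. Every LPS culture exceeded every control culture, and Hif1a rose by 1.60 on the log2 scale (SE 0.18, adjusted p = 0.00509). Its mRNA level does not measure the protein, whose amount is set mainly by hydroxylation and degradation. Of 9 other genes of the HIF system the test called 1, near the 9.09% of all genes that rose, and this was Vhl, the substrate receptor of the ubiquitin ligase that marks HIF-alpha for degradation. Vhl stood at 35.3, 32.1 and 38.4 CPM in control and 70.8, 79.7 and 51.5 CPM in LPS cultures (log2 fold change 0.93, SE 0.18, adjusted p = 0.0224), a call lost when replicate 1 or 2 of either group was left out (adjusted p up to 0.108). Egln1 and Egln3, HIF prolyl hydroxylases, had log2 fold changes of 1.36 (adjusted p = 0.0558) and 1.67 (adjusted p = 0.207). Both passed with the replicate block, at 1.24 (adjusted p = 0.0324) and 1.54 (adjusted p = 0.00586). Arnt, the partner subunit of HIF-1, had a log2 fold change of -0.05 (adjusted p = 0.676), and Epas1, which encodes HIF-2 alpha, -0.49 (adjusted p = 0.381). For Arnt2 the value was -0.62 (adjusted p = 0.153), and with the replicate block it fell by 0.61 (adjusted p = 0.0103). With the block, 3 of the 9 rose and 1 fell, against 15.4% and 14.9% of all genes.

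HIF-1 binds DNA at a short core, and the promoters of the 32 genes were searched for it to show where these letters stand. The motif was ACGTG or GCGTG on either strand, in the 250 bases before each transcript start in RefSeq (GRCm38.p6), and the first of these also lies inside the E-box CACGTG. It was found in 38 of the 47 windows of these genes (80.9%), against 38.6% of 32851 windows of all genes, and 28 of the 31 genes with a window held it. Windows of a gene can overlap, as for Eno1, Aldoa and Pfkm, so the same letters entered the count of windows more than once. The median GC content of the windows was 60.4% for these genes and 52.4% for all genes, and the part of base composition in the difference was not tested. Among genes that rose, 18 of 20 held the motif, and among those that did not pass the test 9 of 10 with a window held it. A match is a run of letters and not a bound site. The 6 windows printed here show the motif before 4 genes that rose and 2 that did not pass the test, and all 6 lie outside annotated exons. They are Slc16a1 (chr3:104638414-104638663 on the plus strand), Ldha (chr7:46845554-46845803 on the plus strand), Hk2 (chr6:82774455-82774704 on the minus strand), Pgk1 (chrX:106186850-106187099 on the plus strand), Ldhb (chr6:142507958-142508207 on the minus strand) and Hk3 (chr13:55021386-55021635 on the minus strand). Each is written 5′ to 3′ on the gene's strand and ends at the base before the start, and capitals mark the motif on either strand:
Slc16a1: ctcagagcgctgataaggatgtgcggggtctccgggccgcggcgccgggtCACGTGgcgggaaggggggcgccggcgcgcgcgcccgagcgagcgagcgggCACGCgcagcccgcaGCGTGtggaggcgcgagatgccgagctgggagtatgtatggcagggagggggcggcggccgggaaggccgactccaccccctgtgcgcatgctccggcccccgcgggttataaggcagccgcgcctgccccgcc
Ldha: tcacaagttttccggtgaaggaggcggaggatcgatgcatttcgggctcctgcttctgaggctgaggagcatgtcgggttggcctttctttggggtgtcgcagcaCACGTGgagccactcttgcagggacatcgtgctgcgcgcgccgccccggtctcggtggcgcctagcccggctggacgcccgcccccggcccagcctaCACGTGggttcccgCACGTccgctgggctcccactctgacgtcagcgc
Hk2: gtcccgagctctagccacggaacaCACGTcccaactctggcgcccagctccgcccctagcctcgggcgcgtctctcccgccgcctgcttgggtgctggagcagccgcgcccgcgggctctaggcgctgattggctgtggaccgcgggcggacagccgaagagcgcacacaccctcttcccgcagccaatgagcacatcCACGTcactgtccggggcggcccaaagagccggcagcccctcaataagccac
Pgk1: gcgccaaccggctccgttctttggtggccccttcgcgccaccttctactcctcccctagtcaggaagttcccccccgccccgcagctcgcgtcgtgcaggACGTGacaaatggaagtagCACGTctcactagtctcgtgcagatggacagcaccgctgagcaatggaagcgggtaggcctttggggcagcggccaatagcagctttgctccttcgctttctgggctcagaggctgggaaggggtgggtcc
Ldhb: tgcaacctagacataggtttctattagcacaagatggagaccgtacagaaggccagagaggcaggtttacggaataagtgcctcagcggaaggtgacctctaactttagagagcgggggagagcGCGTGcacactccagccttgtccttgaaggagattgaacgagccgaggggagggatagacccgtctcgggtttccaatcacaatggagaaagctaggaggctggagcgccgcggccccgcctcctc
Hk3: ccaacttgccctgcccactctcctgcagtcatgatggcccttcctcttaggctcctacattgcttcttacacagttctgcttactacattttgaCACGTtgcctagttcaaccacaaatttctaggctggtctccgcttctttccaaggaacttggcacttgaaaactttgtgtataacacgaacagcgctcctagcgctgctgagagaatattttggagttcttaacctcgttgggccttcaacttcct

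In these windows the motif began 200, 149 and 134 bases before the start of Slc16a1, and 145, 48 and 34 bases before that of Ldha. It began 226 and 52 bases before the start of Hk2, 150 and 131 before that of Pgk1, 126 before that of Ldhb and 156 before that of Hk3. Pfkfb2, which fell, held the motif in all 3 of its windows, so in this set the letters stood before genes of either direction.

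Glucose enters through facilitative transporters, and the ubiquitous one, Slc2a1 (GLUT1), rose. Slc2a1 (chr4:119108711-119137983, plus strand) measured 89.4, 91.5 and 104 CPM in control and 414, 502 and 249 CPM in LPS cultures. The groups were far apart and the mean was 4.08-fold higher with LPS (log2 fold change 2.03, SE 0.26, adjusted p = 0.00801). Without control replicate 2 its adjusted p was 0.0579. Slc2a3 (GLUT3), a transporter of high affinity, measured 18.3, 15.3 and 8.75 CPM in control and 26.4, 29.0 and 6.96 CPM in LPS cultures. Its replicate 3 was the lowest library of each group, the groups overlapped, and it did not pass the test (log2 fold change 0.56, SE 0.56, adjusted p = 0.543). Per kilobase of exon, Slc2a1 averaged 27.1 ± 2.33 CPM and Slc2a3 1.95 ± 0.672 CPM (mean ± SD, n = 3) in control cultures.

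Hexokinases trap glucose as glucose 6-phosphate, and of the 3 measured Hk2 passed the test. Hk2 (chr6:82725025-82774454, minus strand), the inducible form, measured 57.2, 62.9 and 82.1 CPM in control and 169, 195 and 166 CPM in LPS cultures. Its LPS values were close together and all above the controls (log2 fold change 1.39, SE 0.16, adjusted p = 0.00505). Hk1, the form of most tissues, measured 121, 127 and 101 CPM in control and 346, 382 and 154 CPM in LPS cultures. Its groups did not overlap but LPS replicate 3 lay far below the other LPS libraries, and it missed the threshold (log2 fold change 1.34, SE 0.34, adjusted p = 0.0507). With the replicate block it passed (log2 fold change 1.25, adjusted p = 0.0194), and without LPS replicate 3 it passed as well. Hk3, a form known from white blood cells, measured 85.7, 110.3 and 205 CPM in control and 62.8, 82.9 and 376 CPM in LPS cultures. Replicate 3 was the highest library of either group and the groups overlapped (log2 fold change 0.38, SE 0.75, adjusted p = 0.773). Without LPS replicate 3 the log2 fold change of Hk3 turned to -0.88 (adjusted p = 0.187). Of the 3 genes per kilobase, Hk3 took 49.5, 54.1 and 68.5% in control and 19.9, 22.5 and 69.0% in LPS cultures, and the share of each hexokinase overlapped between groups (exact permutation test, two-sided, p = 0.4 for Hk1, 0.3 for Hk2 and 0.4 for Hk3).

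Hk3 and the summed level of the macrophage markers were both highest in the libraries numbered 3 of their group. Per 1000 CPM of the 14 summed macrophage markers, Hk3 measured 19.7, 19.4 and 15.1 CPM in control replicates 1, 2 and 3 and 14.8, 15.0 and 17.7 CPM in LPS replicates 1, 2 and 3. These ratios overlapped between the groups and spanned a narrower range than Hk3 itself. Lyz2 alone made up 53.8% to 66.4% of the marker sum. Of the 14 macrophage markers, 13 were above the floor in every library. The test called 1 higher (Adgre1, log2 fold change 2.78, adjusted p = 0.0452), near the 9.09% of all genes that rose. The markers did not move as one, since Mrc1 measured 197, 331 and 752 CPM in control and 9.28, 10.4 and 131 CPM in LPS cultures without overlap (log2 fold change -3.08, SE 1.22, adjusted p = 0.145). With the replicate block 5 of the 14 rose and 3 fell, against 15.4% and 14.9% of all genes. The part of macrophage RNA in the values of Hk3 was not tested. For the 32 genes as a whole, the sum without Hk3 was 6696, 6807 and 7135 CPM in control and 16157, 17188 and 11958 CPM in LPS cultures.

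**Figure D3:**
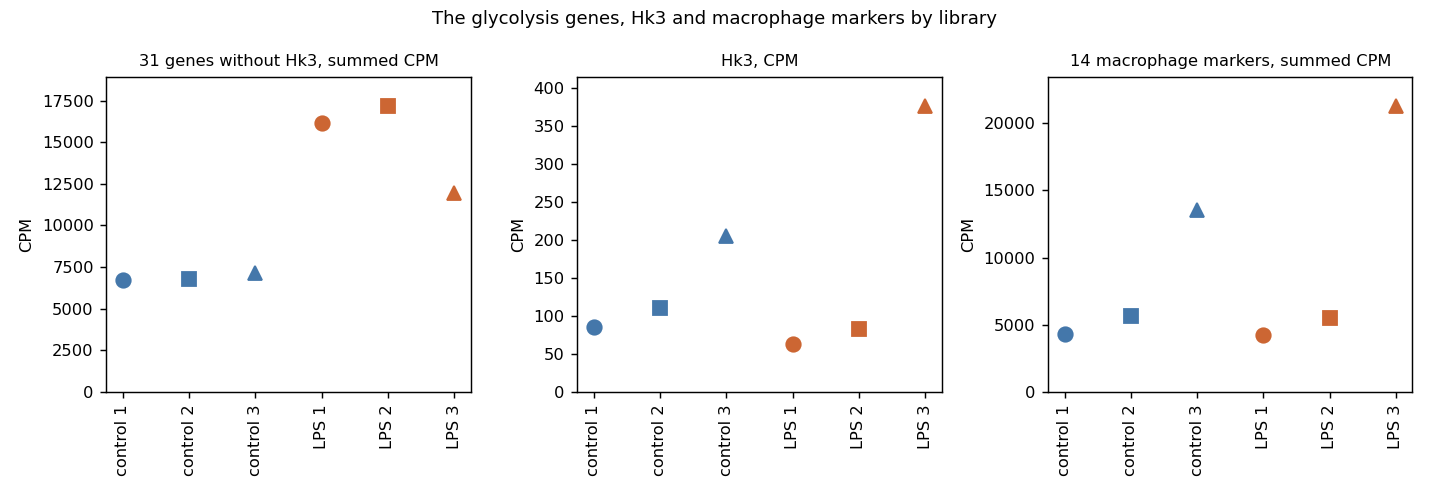
Level (CPM, axes from 0) per library of the other 31 genes summed, of Hk3, and of 14 macrophage markers summed, with control libraries in blue and LPS libraries in orange. Hk3 and the markers are highest in both libraries numbered 3 (13582 and 21315 CPM of markers), whereas the 31 genes are higher in every LPS library than in every control library.

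Phosphofructokinase-1 commits glucose carbon to glycolysis, and of its 3 subunit genes Pfkl rose. Pfkl, the liver-type subunit (chr10:77986947-78010083, minus strand), measured 96.0, 102 and 95.6 CPM in control and 419, 429.9 and 245 CPM in LPS cultures. Control values were nearly equal and the LPS values all lay above them (log2 fold change 1.90, SE 0.23, adjusted p = 0.00613). Pfkm, the muscle type, had means of 49.6 ± 10.2 and 42.8 ± 6.23 CPM (SD, n = 3) in control and LPS cultures (log2 fold change -0.21, SE 0.19, adjusted p = 0.486). Pfkp, the platelet type, measured 104, 98.4 and 92.5 CPM in control and 141, 152 and 76.4 CPM in LPS cultures, with LPS replicate 3 below all controls (log2 fold change 0.32, SE 0.26, adjusted p = 0.44). Within the 3 genes, taken per kilobase of exon, Pfkl accounted for 36.1, 40.3 and 43.6% in control and 72.1, 71.8 and 69.2% in LPS cultures. The share of Pfkm averaged 40.0% and 17.2%, and that of Pfkp 20.0% and 11.8%. Shares do not depend on library scaling, and all LPS libraries, replicate 3 included, lay beyond the controls. With 3 cultures against 3, the exact permutation test (two-sided) cannot give less than 0.1, which is what it gave for each of these shares (0.125 adjusted over 15 shares). Without the correction for length, the difference between LPS and control was -11.7 in place of -22.8 percentage points for Pfkm and -17.1 in place of -8.16 for Pfkp.

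The bifunctional PFKFB enzymes set the level of fructose 2,6-bisphosphate, the strongest activator of phosphofructokinase-1. Pfkfb3 (chr2:11471433-11554077, minus strand), the inducible form with high kinase activity, measured 64.0, 62.9 and 55.9 CPM in control and 176, 195 and 179 CPM in LPS cultures. It had the smallest adjusted p of the 32 genes (log2 fold change 1.59, SE 0.09, adjusted p = 0.000417), and LPS replicate 3 lay between the other LPS libraries. Leaving out any 1 library kept it at an adjusted p of 0.00813 or less. Pfkfb2, the heart-type form, measured 12.7, 10.5 and 12.2 CPM in control and 7.31, 7.01 and 8.68 CPM in LPS cultures. It fell in all 3 cultures (log2 fold change -0.62, SE 0.14, adjusted p = 0.04), but the call held only without LPS replicate 3 and was lost when any of the other 5 libraries was left out (adjusted p up to 0.141). Of the 50-base words of its transcripts, 17.3% also occur in transcripts of another gene, so its count is uncertain. Pfkfb4 had means of 30.8 ± 7.92 and 32.9 ± 16.3 CPM (SD, n = 3) and did not pass (log2 fold change 0.10, SE 0.37, adjusted p = 0.888), and its sign turned with upper-quartile scaling (-0.02) and library size alone (-0.07), without control replicate 2 (-0.01) and without LPS replicate 3 (-0.39). Pfkfb3 made up 54.0, 55.3 and 42.8% of the 3 genes per kilobase in control and 80.3, 81.4 and 66.8% in LPS cultures, while the mean share of Pfkfb4 was 39.1% and 20.5% and that of Pfkfb2 10.2% and 3.30%.

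**Figure D4:**
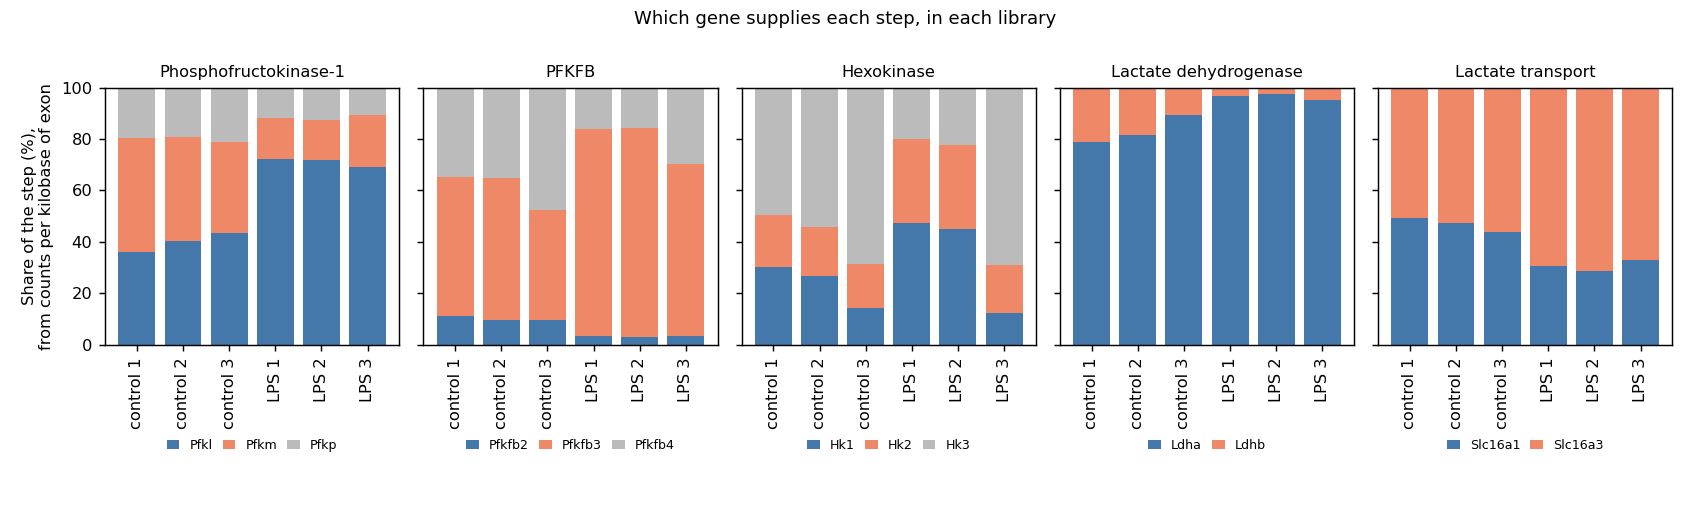
Stacked bars from 0 to 100% show, for each library, the share of each gene in the summed counts per kilobase of exon of its step, for phosphofructokinase-1, PFKFB, hexokinase, lactate dehydrogenase and the lactate transporters. Pfkl (blue, left panel) takes 36.1% to 43.6% in control and 69.2% to 72.1% in LPS libraries, and the hexokinase bars of both libraries numbered 3 resemble each other.

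Of the enzymes that carry hexose phosphate to triose phosphate, Gpi1, Aldoa and Tpi1 rose. Gpi1, glucose 6-phosphate isomerase, measured 379.6, 371 and 365 CPM in control and 679, 759 and 509.8 CPM in LPS cultures (log2 fold change 0.81, SE 0.16, adjusted p = 0.0241). Aldoa, the main aldolase, measured 799, 832 and 818 CPM in control and 1505, 1570.3 and 1311 CPM in LPS cultures (log2 fold change 0.84, SE 0.10, adjusted p = 0.0062). Tpi1, triose phosphate isomerase, measured 269, 272 and 289 CPM in control and 776, 848 and 528 CPM in LPS cultures (log2 fold change 1.38, SE 0.19, adjusted p = 0.00888). In each of the 3 the lowest LPS library was replicate 3, and it still lay above all controls. Aldoc, the brain-type aldolase, had means of 9.94 ± 0.234 and 12.7 ± 3.31 CPM (SD, n = 3) and did not pass (log2 fold change 0.35, SE 0.21, adjusted p = 0.297). The call of Gpi1 was lost in every fit with 1 library left out except the one without LPS replicate 3 (adjusted p up to 0.113), that of Tpi1 without control replicates 1 or 2 (up to 0.0621), and that of Aldoa without control replicate 2 (0.053).

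Each step of the payoff phase, which forms ATP and NADH, held a gene that rose. Gapdh, the dehydrogenase of glyceraldehyde 3-phosphate, measured 766, 777 and 828 CPM in control and 1777, 1878 and 1376 CPM in LPS cultures (log2 fold change 1.09, SE 0.14, adjusted p = 0.00785). Pgk1, phosphoglycerate kinase, measured 167, 183 and 167 CPM in control and 580.1, 647 and 371 CPM in LPS cultures (log2 fold change 1.63, SE 0.22, adjusted p = 0.00835), the largest log2 fold change of this phase. Pgam1, phosphoglycerate mutase, measured 125, 129 and 132 CPM in control and 264, 273 and 193 CPM in LPS cultures (log2 fold change 0.92, SE 0.14, adjusted p = 0.0138). Gapdh is often used as a reference gene, and here its LPS values were all above its control values. Eno1, the ubiquitous enolase, measured 496, 501 and 462 CPM in control and 1287, 1311 and 813 CPM in LPS cultures (log2 fold change 1.23, SE 0.20, adjusted p = 0.0149). Eno2, the neuronal enolase, had means of 64.7 ± 7.40 and 66.9 ± 10.0 CPM (SD, n = 3) and did not pass (log2 fold change 0.05, SE 0.14, adjusted p = 0.853). Its sign turned with upper-quartile scaling (-0.05), with library size alone (-0.11), and without LPS replicate 1 or 2. Pkm, the pyruvate kinase of most tissues, measured 1276, 1270.0 and 1480.5 CPM in control and 2814, 2859.5 and 2442 CPM in LPS cultures (log2 fold change 1.01, SE 0.12, adjusted p = 0.00592). The gene-level count does not separate the M1 and M2 transcripts of Pkm.

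Counts of these enzymes carry a limit of sequence. The share of 50-base words that also occur in transcripts of other genes, such as processed pseudogenes of Pgk1, Pgam1 and Gapdh, was 53.9% for Pgk1, 36.2% for Pgam1, 26% for Eno1, 25.8% for Pkm and 25.1% for Gapdh, and the handling of reads with several alignments is not given in the sources used here. It was 16.9% for G6pdx, part of it in Ikbkg, and 15.8% for Gpi1, and none for Hk2, Slc16a1, Slc16a3 and Pdk1. Calls were lost without control replicates 1 or 2 for Gapdh (adjusted p up to 0.06) and Pgk1 (up to 0.0544), and without replicate 1 or 2 of either group for Pgam1 (up to 0.0789) and Eno1 (up to 0.0799). Pkm lost its call without control replicate 2 (0.0536). From hexokinase to pyruvate kinase, 10 of the 16 genes rose and 0 fell, where 9.09% and 6.71% of all genes did so, with 0 lower at an unadjusted p under 0.05 by the edgeR test and 0 called lower by DESeq2 or limma-voom. At an unadjusted p under 0.05, 1 was lower with the replicate block and 2 with both libraries numbered 3 left out. Without control replicate 1 the count of 10 that rose became 4, against 3.03% of all genes. It was 2 without control replicate 2 (Hk2 and Pfkl, 2.44% of all genes) and 9 without control replicate 3 (7.52%). Without LPS replicate 1 or 2 it was 7 (3.98% and 3.36%), and without LPS replicate 3 it was 13 (12.6%). With all 6 libraries each step of the route held at least 1 gene that rose, and the median log2 fold change of the 16 was 0.96.

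**Figure D5:**
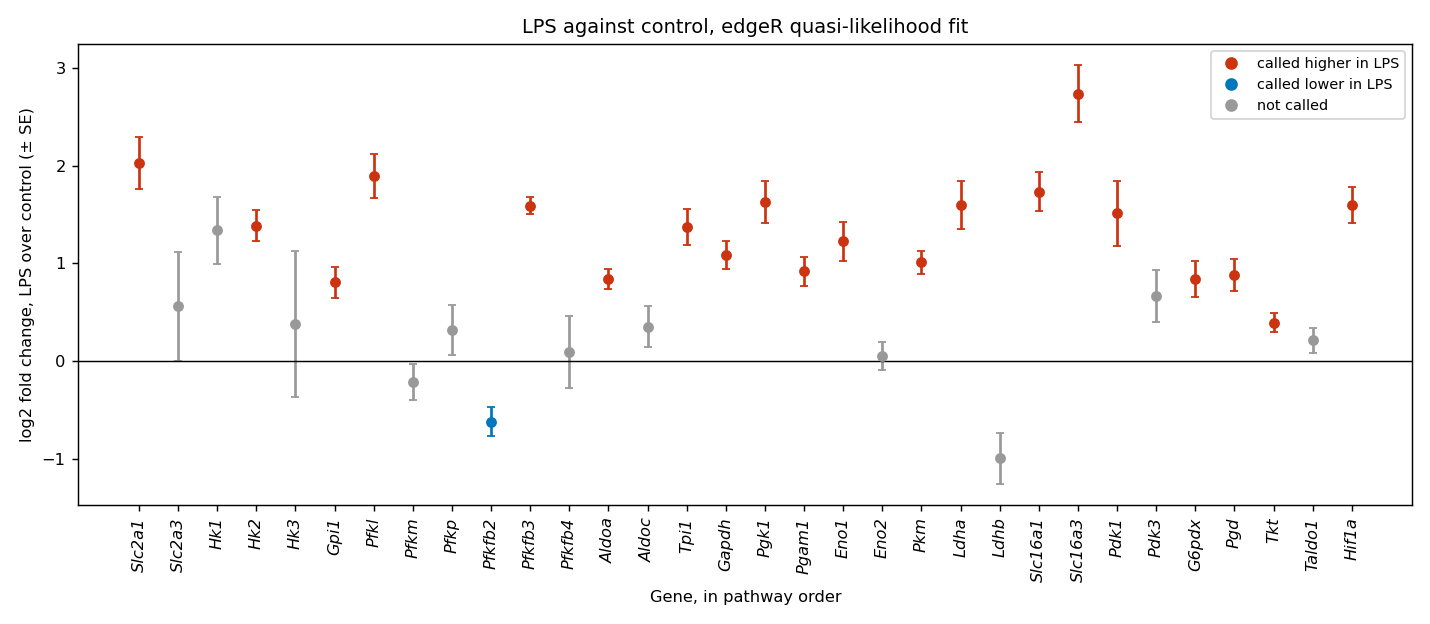
Log2 fold change (LPS against control) of the 32 genes with its SE as error bar, in pathway order, from the edgeR fit, in red where called higher, blue where called lower and grey where not called. Slc16a3 is the highest at 2.74, and Ldhb the lowest at -0.998.

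Among the 32 genes, the highest levels per kilobase of exon belonged to Aldoa, Pkm, Gapdh and Ldha in control cultures. Aldoa averaged 280.5 ± 5.63 CPM per kilobase and Pkm 268 ± 24.0 (mean ± SD, n = 3), whose libraries overlapped, followed by Gapdh at 191 ± 8.04 and Ldha at 179 ± 9.06, whose libraries overlapped as well. In LPS cultures Ldha averaged 543 ± 166, Pkm 541 ± 45.8, Aldoa 502 ± 46.3 and Gapdh 406 ± 64.3, and the spread of Ldha covered the other 3 means. Hk2 and Pfkl were lower on this scale, at 11.3 ± 2.19 and 14.7 ± 0.552 in control cultures and 29.5 ± 2.67 and 54.6 ± 15.6 in LPS cultures.

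Lactate formation and export held the largest change of the set. Ldha, the subunit that favours lactate (chr7:46841475-46855627, plus strand), measured 562, 593 and 622 CPM in control and 2003, 2213 and 1172 CPM in LPS cultures (log2 fold change 1.60, SE 0.25, adjusted p = 0.0129). Ldhb, the subunit that favours pyruvate, measured 71.7, 63.5 and 35.8 CPM in control and 30.4, 26.1 and 29.2 CPM in LPS cultures. Its groups did not overlap, control replicate 3 lay nearest to the LPS cultures, and it missed the threshold (log2 fold change -0.998, SE 0.26, adjusted p = 0.0533) but passed with the replicate block (log2 fold change -0.94, adjusted p = 0.039). Ldha made up 78.8, 81.6 and 89.2% of both genes per kilobase in control cultures and 96.9, 97.6 and 95.0% in LPS cultures, and all LPS cultures lay above all controls (exact permutation test, two-sided p = 0.1, the smallest possible). Without the correction for length the difference in the Ldha share was 7.11 in place of 13.3 percentage points. The call of Ldha was lost when replicate 1 or 2 of either group was left out (adjusted p up to 0.0773), and 21% of the words of Ldhb also occur in another gene.

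Slc16a3 (MCT4, chr11:120948480-120960868, plus strand), the transporter adapted to lactate export, measured 31.4, 36.4 and 46.3 CPM in control and 285, 314 and 163 CPM in LPS cultures. Its mean was 6.68-fold higher with LPS, the largest rise of the 32 genes (log2 fold change 2.74, SE 0.29, adjusted p = 0.00414), and the lowest LPS culture still held over 3 times the highest control. Slc16a1 (MCT1), which carries lactate in either direction, measured 25.4, 27.2 and 30.3 CPM in control and 105, 105 and 66.1 CPM in LPS cultures (log2 fold change 1.73, SE 0.20, adjusted p = 0.00544). Both kept their calls in all 6 fits with 1 library left out, at adjusted p values up to 0.0383 and 0.0445. Per kilobase, control cultures averaged 6.25 ± 0.556 CPM for Slc16a1 and 7.15 ± 1.43 CPM for Slc16a3, and LPS cultures 20.8 ± 5.08 and 47.8 ± 15.1 CPM. The share of Slc16a1 in their sum was 49.3, 47.4 and 44.0% in control and 30.7, 28.7 and 32.8% in LPS cultures. Bsg, whose product basigin brings both transporters to the membrane, is outside the 32 genes and measured 482, 497 and 386 CPM in control and 955, 1028 and 547 CPM in LPS cultures, missing the threshold (log2 fold change 0.89, SE 0.26, adjusted p = 0.07) but passing with the replicate block (log2 fold change 0.85, adjusted p = 0.0139).

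Pyruvate dehydrogenase kinases switch off the entry of pyruvate into the citrate cycle. Pdk1 measured 31.5, 39.7 and 50.4 CPM in control and 124, 154 and 68.9 CPM in LPS cultures. LPS replicate 3 lay closer to the controls than to the other LPS libraries, yet the groups did not overlap and Pdk1 rose (log2 fold change 1.51, SE 0.33, adjusted p = 0.0338). That call was lost when replicate 1 or 2 of either group was left out (adjusted p up to 0.137). Pdk3 had means of 20.3 ± 3.85 and 32.3 ± 9.76 CPM (SD, n = 3) in control and LPS cultures, overlapped between groups and missed the threshold (log2 fold change 0.67, SE 0.27, adjusted p = 0.15), but passed with the replicate block (log2 fold change 0.64, adjusted p = 0.0142). Outside the 32 genes, Pdk2 measured 17.1, 17.3 and 14.04 CPM in control and 8.39, 7.46 and 11.1 CPM in LPS cultures and fell (log2 fold change -0.85, SE 0.19, adjusted p = 0.0338), and so did Pdp1, a phosphatase with the opposite action (27.4, 29.7 and 28.5 against 17.5, 20.4 and 22.9 CPM, log2 fold change -0.49, SE 0.12, adjusted p = 0.0438). None of the 5 subunit genes of the pyruvate dehydrogenase complex tested and neither gene of the mitochondrial pyruvate carrier passed, with log2 fold changes from -0.30 (Pdha1, adjusted p = 0.101) to 0.16 (Pdhx, adjusted p = 0.329).

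Of the 4 pentose phosphate genes, 3 rose, against 9.09% of all genes, with a median log2 fold change of 0.62 over the 4. G6pdx, the NADPH-forming entry enzyme, measured 74.7, 83.0 and 106 CPM in control and 134, 150.1 and 189.8 CPM in LPS cultures (log2 fold change 0.84, SE 0.18, adjusted p = 0.0339). Replicate 3 was the highest of both groups, and the log2 ratios between same-numbered cultures were 0.84, 0.86 and 0.84, the most even of the genes that rose. Pgd, the next NADPH-forming enzyme, measured 194, 206 and 260.4 CPM in control and 407, 463 and 345 CPM in LPS cultures (log2 fold change 0.88, SE 0.16, adjusted p = 0.021). Tkt, transketolase, which links the pathway back to glycolysis, measured 234, 252 and 273 CPM in control and 341, 350.0 and 306 CPM in LPS cultures (log2 fold change 0.39, SE 0.10, adjusted p = 0.0446). Taldo1, transaldolase, had means of 152 ± 25.1 and 176 ± 8.95 CPM (SD, n = 3) and did not pass (log2 fold change 0.21, SE 0.13, adjusted p = 0.323). G6pdx, Pgd and Tkt lost their calls when replicate 1 or 2 of either group was left out (adjusted p up to 0.138, 0.107 and 0.168). H6pd, which encodes a hexose 6-phosphate dehydrogenase of the endoplasmic reticulum, is no member of the 32. It measured 123, 129 and 166 CPM in control and 352, 317 and 302 CPM in LPS cultures and rose as well (log2 fold change 1.21, SE 0.14, adjusted p = 0.00528).

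Genes of the same routes outside the 32 were read in the same fit. Of 46 further genes of glycolysis, pyruvate handling and the pentose phosphate route, 34 passed the filter, of which 3 rose and 4 fell, and the median log2 fold change was -0.08. Over all genes 9.09% rose and 6.71% fell, and the count of 3 in 34 lies near that background. Slc2a6, a member of the glucose transporter family, measured 5.55, 5.79 and 8.55 CPM in control and 57.0, 67.8 and 54.3 CPM in LPS cultures, a larger log2 fold change than any of the 32 (log2 fold change 3.17, SE 0.21, adjusted p = 0.000839). Pgm2, a phosphoglucomutase, measured 66.5, 68.1 and 54.8 CPM in control and 199.8, 219 and 108 CPM in LPS cultures (log2 fold change 1.48, SE 0.28, adjusted p = 0.0224), and H6pd completed the 3. Besides Pdk2 and Pdp1, the muscle enolase Eno3 (23.5, 22.0 and 8.18 against 6.17, 4.90 and 4.45 CPM, log2 fold change -1.79, SE 0.42, adjusted p = 0.0409) and the sedoheptulose kinase Shpk (5.80, 5.13 and 5.29 against 2.12, 2.84 and 3.50 CPM, log2 fold change -0.94, SE 0.22, adjusted p = 0.0424) fell. Slc2a6 and H6pd kept their calls with any 1 library left out, whereas Pgm2, Pdk2, Pdp1, Eno3 and Shpk lost theirs when replicate 1 or 2 of either group was left out, as did Pgm2, Pdp1 and Shpk without control replicate 3 and Eno3 without LPS replicate 3 (adjusted p up to 0.0961, 0.136, 0.166, 0.144 and 0.14). Smooth muscle markers summed to 2561, 2565 and 2323 CPM in control and 971, 940 and 676 CPM in LPS replicates 1, 2 and 3. Their sum and the muscle enolase were both lower with LPS. In control replicate 3 the enolase (8.18 CPM) lay far below the other controls, whereas the marker sum lay near them. The part of smooth muscle in the fall of Eno3 was not tested. With the replicate block 4 rose and 6 fell, against 15.4% and 14.9% of all genes, as Bsg joined the first and Slc16a7 and Pdk4 the second.

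HIF-1 targets outside glycolysis were read in the same fit, from a list of textbook targets of which 20 had a gene in the files. The list was chosen with earlier results of these data known, so its count of calls is not an independent test. All 20 passed the filter, 10 rose and 0 fell, with 0 lower at an unadjusted p under 0.05 and 0 called lower by DESeq2 or limma-voom, where 9.09% of all genes rose and 6.71% fell. Their median log2 fold change was 1.31, from 0.17 to 4.54. Vegfa, the angiogenic growth factor, measured 132, 121 and 163 CPM in control and 279, 340.2 and 338 CPM in LPS cultures (log2 fold change 1.21, SE 0.15, adjusted p = 0.00637), and it alone of the 10 kept its call with any 1 library left out. Angptl4, a secreted inhibitor of lipoprotein lipase, measured 4.40, 3.54 and 10.0 CPM in control and 180.3, 198 and 40.8 CPM in LPS cultures (log2 fold change 4.54, SE 0.76, adjusted p = 0.0165). Bnip3, a mitophagy receptor, measured 40.2, 44.5 and 34.2 CPM in control and 253, 329 and 90.8 CPM in LPS cultures (log2 fold change 2.50, SE 0.47, adjusted p = 0.0225). In both, LPS replicate 3 was the lowest LPS culture by a wide margin and still above all controls. Others that rose were P4ha2 (2.85), Ero1l (2.35), Car12 (1.36), Stc2 (1.27), Ddit4 (0.66) and Kdm3a (0.46), given as log2 fold changes with adjusted p between 0.0121 and 0.0498. With 1 control culture left out the count was 1 (replicate 1, 3.03% of all genes), 1 (replicate 2, 2.44%) or 3 (replicate 3, 7.52%). It was 2 without LPS replicate 1 (3.98%) or 2 (3.36%) and 18 without LPS replicate 3 (12.6%). With the replicate block 13 rose (15.4% of all genes), as Adm, P4ha1 and Higd1a joined.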

How the data were processed

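Poly(A) RNA of 3 control and 3 LPS cultures was sequenced as stranded libraries. Raw counts per gene were deposited, which the authors had made from reads aligned to GRCm38. Tools named in the submitters' processing notes were cutadapt 1.15, Bowtie2 2.3.3.1, STAR 2.5.2b, SAMtools 1.5 and featureCounts 1.5.3, and the strand and multi-mapping settings are not given in the sources used here. A table of the whole series held the same values and was not used.

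Counts were filtered with filterByExpr (minimum count 10, minimum total 15), scaled with TMM factors from 0.917 to 1.08 and tested with the quasi-likelihood F-test of edgeR 4.0.16 in R 4.3.3, two-sided, on group alone, with Benjamini-Hochberg adjustment over 15226 genes and a call under 0.05. Standard errors (SE) are the absolute log2 fold change divided by the square root of F. Fits with DESeq2 1.42.0, limma-voom (limma 3.58.1), other scalings and filters, a replicate block, and each library left out were alternatives. The test was tested on simulated data. Totals of 18775316 to 23664312 counts set the precision, and the floor of 3 counts was 0.124 to 0.167 CPM and covers counting error only, since PCR copies cannot be recognized.

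Deviations from the group means over 15226 genes correlated within each replicate number (r = 0.513 for number 1, 0.334 for 2 and 0.613 for 3), above the limit of 0.1 set for pairing, and a fit with the number as a block is therefore given beside the test on group alone where it changes a call. Control replicate 1 with LPS replicate 2 and control replicate 2 with LPS replicate 1 correlated at 0.419 and 0.323, so the numbers 1 and 2 are not told apart by this check, and the labels do not say what a number stands for. Exon lengths and positions came from GENCODE M21, where 46005 identifiers matched, and promoters from RefSeq (31 of the 32 genes matched). Shares within a step were compared with exact permutation tests. The members and lists were chosen with earlier results of these data known. All 32 genes are named, with values per library for those called, not overlapping between groups, or most abundant of a step, and genes of other lists are named where called or where a result turns on them. Some genes that entered the counts are not reported here by name.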

Additional observations from a re-analysis of the deposited data

How the results depend on the processing

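Among the 32 genes, 20 were called higher and 1 lower, against 9.09% and 6.71% of all genes. Under the other scalings, filters and tools the higher count stayed between 19 and 21, while the lower count was 2 with upper-quartile factors, library size alone or DESeq2, and 0 with no filter on low counts. With the replicate block, which treats same-numbered cultures as pairs, 22 were higher and 2 lower (15.4% and 14.9% of all genes). The block changed no other call of the 32. Leaving out 1 library gave 6 to 24 higher (2.44% to 12.6% of all genes) and 0 to 1 lower (0.72% to 9.13%). With both libraries numbered 3 left out 26 were higher (22.6%) and 2 lower (20.4%). The sign turned for Hk3 without LPS replicate 3 (-0.88, range over single libraries left out -0.88 to 0.84) and with both libraries numbered 3 left out (-0.41). It turned for Pfkfb4 with upper-quartile factors (-0.019), library size alone (-0.067) and both libraries numbered 3 left out (-0.13), and ranged from -0.39 to 0.34 with single libraries left out. For Eno2 it turned with upper-quartile factors (-0.053), with library size alone (-0.11), and without LPS replicate 1 or 2. The log2 fold change of Eno2 ranged from -0.020 to 0.17 with single libraries left out. None of these 3 genes was called. The median of all genes shifted from -0.02 to -0.12 when scaled by upper quartiles and -0.18 by library size, and that of the 32 genes from 0.90 to 0.80 and 0.75.

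Of the 34 further pathway genes, 3 were called higher and 4 lower, against 9.09% and 6.71% of all genes. The lower count was 2 with no filter (44 genes tested, 3.28% of all genes) and 6 with the replicate block (14.9%). It was 11 with both libraries numbered 3 left out (20.4%) and 0 to 3 with 1 library left out (0.72% to 9.13%). HIF-1 targets called higher numbered 10, against 9.09% of all genes. The count was 7 with upper-quartile factors (6.9% of all genes) or library size alone (6.48%) and 8 with limma-voom (8.21%). It was 9 with no filter (4.48%) or at least 10 counts in every library (8.71%), and 16 with DESeq2 (13.7%). With 1 library left out it was 1 to 18 (2.44% to 12.6%), and with both libraries numbered 3 left out 19 (22.6%). Over all genes, 1384 were higher and 1022 lower. DESeq2 gave 2079 and 1673, the replicate block 2343 and 2273, and leaving out both libraries numbered 3 gave 3498 and 3159. Scaling by upper quartiles gave 1589 lower calls and scaling by library size 2054. Leaving out 1 library gave 379 to 1964 higher and 112 to 1426 lower. The cause was not tested, except that fits with a library left out hold fewer samples. With 3 cultures a group, the exact test of a share cannot pass 0.05, and Dixon's test for outliers was not applied.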

Other observations

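Several isoforms known from other tissues were at or near 0 in these cultures. Of the 46 further pathway genes, 12 did not pass the filter. Pgk2, the testis phosphoglycerate kinase, and Tktl2 had 0 counts in all 6 libraries. Ldhc and Gapdhs, also testis forms, had at most 2 and 1 counts in a library. Pklr, the liver and red cell pyruvate kinase, had 8, 5 and 1 counts in control and 13, 9 and 2 in LPS cultures. These counts were too low for a comparison between the groups.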
